A study of Mus musculus with 5 samples.

Results

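PEP2_Htr3a.Sema5a neurons (PEP2 below) are 1 of the 12 neuron types that the authors named in dissociated mouse dorsal root ganglia, and they are the type that other atlases describe as myelinated, peptidergic nociceptors. The members were the cells that carry this name in the deposited annotation. There were 206 of them among 3352 cells, beside 2841 neurons of the other 11 types and the cells of the satellite glia and endothelial types.

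The cells came from the lumbar ganglia of 5 untreated wild type C57BL/6 mice aged 18 weeks, 3 males and 2 females, with 1 single-cell library a mouse and no second condition. The libraries are numbered as mice 1 to 5 in the order of their identifiers and were not matched to a sex. Each value below is a count of unique molecular identifiers (UMIs, which stand for captured RNA molecules) summed over the PEP2 cells of 1 mouse and given as CPM, which sets the sum of all genes to the same total in each mouse, so that the mouse and not the cell is the replicate (n = 5). The authors formed the types by clustering these same counts, so the differences between types below describe cells that were chosen for being different, and their adjusted p-values are no independent evidence.

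Dorsal root ganglia hold the cell bodies of the sensory neurons of the body. Thick, myelinated fibres are rich in neurofilament and in the channels of the node of Ranvier and mostly report touch and position, while thin C fibres are rich in peripherin and mostly report heat, itch and pain. Nociceptors with myelinated A fibres join both: they carry fast, sharp pain, use calcitonin gene-related peptide like other peptidergic nociceptors, and have the axon of a fast fibre.

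PEP2 cells made up 9.15%, 8.72%, 9.26%, 5.59% and 5.74% of the neurons of mice 1 to 5, from 13, 41, 35, 40 and 77 cells. The mean share was 7.69% ± 1.86 (SD, n = 5), and the exact (Clopper-Pearson) 95% intervals ran from 4.97% to 15.1% in mouse 1 and from 4.56% to 7.12% in mouse 5, so the order of the mice is not resolved by these cell numbers. The 5 PEP2 sums held 1235586, 3930303, 3092834, 3260095 and 5025273 UMIs, so values of mouse 1 rest on the least counting. A PEP2 cell held 13877 to 270654 UMIs, with medians of 79943, 97177, 84611, 76204 and 61606 in the 5 mice against 85699, 77571, 60399, 59432 and 57024 in the other neurons. PEP2 was higher in 4 of 5 mice, with a mean log2 ratio of 0.24 ± 0.23 (SD), and the exact sign-flip test over mice gave p = 0.125 (two-sided; 5 mice cannot go below 0.062). Against the 3 PEP1 types the log2 ratio was 0.73 ± 0.18 and positive in 5 of 5 mice (p = 0.062, the same exact test), and against NF_Calb1 it was -0.07 ± 0.17 (exact p = 0.375). The mitochondrial share of UMIs was higher in PEP2 than in the other neurons of the same mouse in 5 of 5 mice, by 1.16 ± 0.83 percentage points (SD; exact p = 0.062), and 26 PEP2 cells were over 10%. Of 7 barcodes that occurred in 2 libraries, 1 belonged to a PEP2 cell.

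The 3 genes that name or mark the type were highest in PEP2 among all 14 types, which is a description, since the clusters rest on them. Htr3a, the pore-forming subunit of the serotonin-gated 5-HT3 cation channel (GRCm38.p6, chromosome 9, 48899213 to 48911152), stood at 824, 509, 677, 591 and 569 CPM in the 5 mice. The next type, PEP1_Dcn, had 225 ± 47.5 CPM (SD), NF2_Ntrk2.Necab2 147 ± 73.2 and NP_Mrgpra3 67.6 ± 26.4, and no mouse of these types reached the lowest PEP2 value. Sema5a, a transmembrane semaphorin of axon guidance (chromosome 15, 32244813 to 32696341), stood at 108, 106, 138, 81.3 and 136 CPM in PEP2 and at 107, 94.8, 54.2, 33.5 and 71.4 CPM in NF_Calb1, so the ranges of these types overlap although PEP2 was the higher in each mouse. The remaining types had at most 15.9 ± 10.97 CPM of Sema5a. Smr2, a gene of the submaxillary gland androgen-regulated family (chromosome 5, 88086556 to 88109053), stood at 139, 27.99, 36.9, 39.9 and 24.5 CPM, against 4.68 ± 3.06 CPM in the next type, NF_Calb1.

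The detection of the 3 genes differed. Htr3a had a UMI in 98.1% of PEP2 cells, Sema5a in 82.5% and Smr2 in 30.6% (63 cells). In satellite glia, which should lack all 3, the shares were 10.0%, 5.62% and 2.81%, with a median of 17729 UMIs a cell against 73919 in PEP2. With every cell thinned to 10000 UMIs (no cell of either type was too shallow), the shares were 88.8%, 55.8% and 11.7% in PEP2 and 4.82%, 2.01% and 1.61% in satellite glia. The high Smr2 value of mouse 1 came from 1 cell of 270654 UMIs that held 166 of that mouse's 172 Smr2 UMIs. Without this cell mouse 1 stood at 6.22 CPM, inside the NF_Calb1 range (0 to 8.22), and the mean of the 5 mice was 27.1 ± 13.2 in place of 53.7 ± 48.2 (SD). The 20 highest cells held 81.0% of the 649 Smr2 UMIs of PEP2, so the Smr2 sum does not describe the typical cell.

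**Figure D1:**
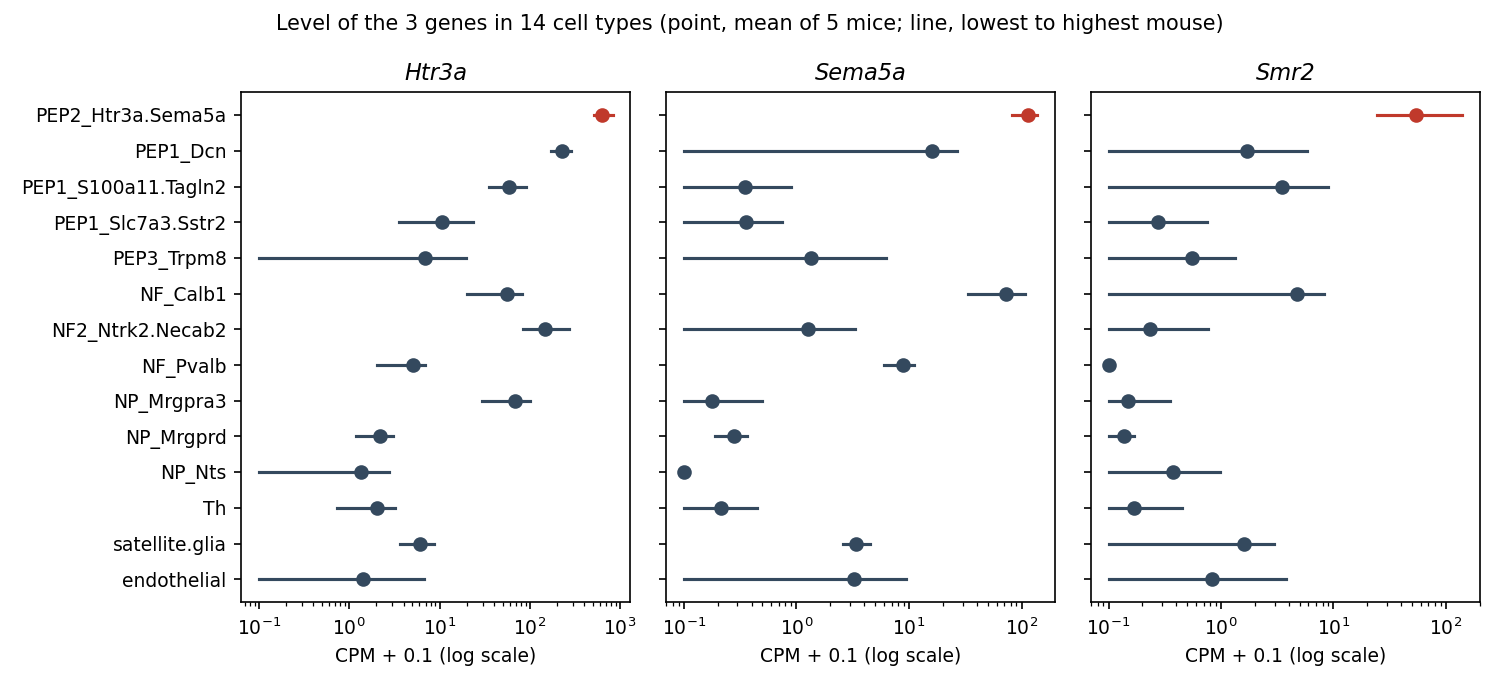
Htr3a, Sema5a and Smr2 in the 14 cell types, as CPM plus 0.1 on a log axis; points are means of 5 mice and lines run from the lowest to the highest mouse, with PEP2 in red. PEP2 is the highest type in each panel, and its range, as drawn, meets that of another type, NF_Calb1, for Sema5a only. Without 1 cell of mouse 1, the Smr2 value of that mouse was 6.22 CPM, inside the NF_Calb1 range (0 to 8.22).

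PEP2 was compared with the sum of the 11 other neuron types, with NF_Calb1, a type rich in neurofilament, and with the sum of the 3 PEP1 types of peptidergic neurons. A gene was called where edgeR's quasi-likelihood test gave an adjusted p under 0.01, the difference was at least 2-fold, and at least 25% of the cells of the higher group had a UMI. Against the other neurons 939 of 11917 genes tested were called higher in PEP2 (7.88%) and 695 lower (5.83%). The list counts below are to be read against these shares, and a count near them is no result about a list. Against NF_Calb1 626 of 10336 were higher (6.06%) and 649 lower (6.28%), and against PEP1 951 of 10688 were higher (8.9%) and 770 lower (7.2%). The 3 comparisons share the PEP2 sums, so their values are given side by side and not as support for each other. The sum of other neurons is weighted towards NP_Mrgprd, the most numerous type, and the fit in which each of the 11 types counts equally, by the mean of their log levels, called 1200 genes higher and 253 lower (82.6% of calls higher, against 57.5%). In that fit the list counts were 5 higher and none lower for neuropeptides, 18 and 1 for the myelinated axon, 21 and 4 for potassium channels and 6 and 2 for the sensory channels. Over all genes tested, the 5 PEP2 values were all above the 5 of the comparator for 19.8% (other neurons), 10.7% (NF_Calb1) and 18.7% (PEP1), and all below for 19.5%, 13.5% and 17%.

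**Figure D2:**
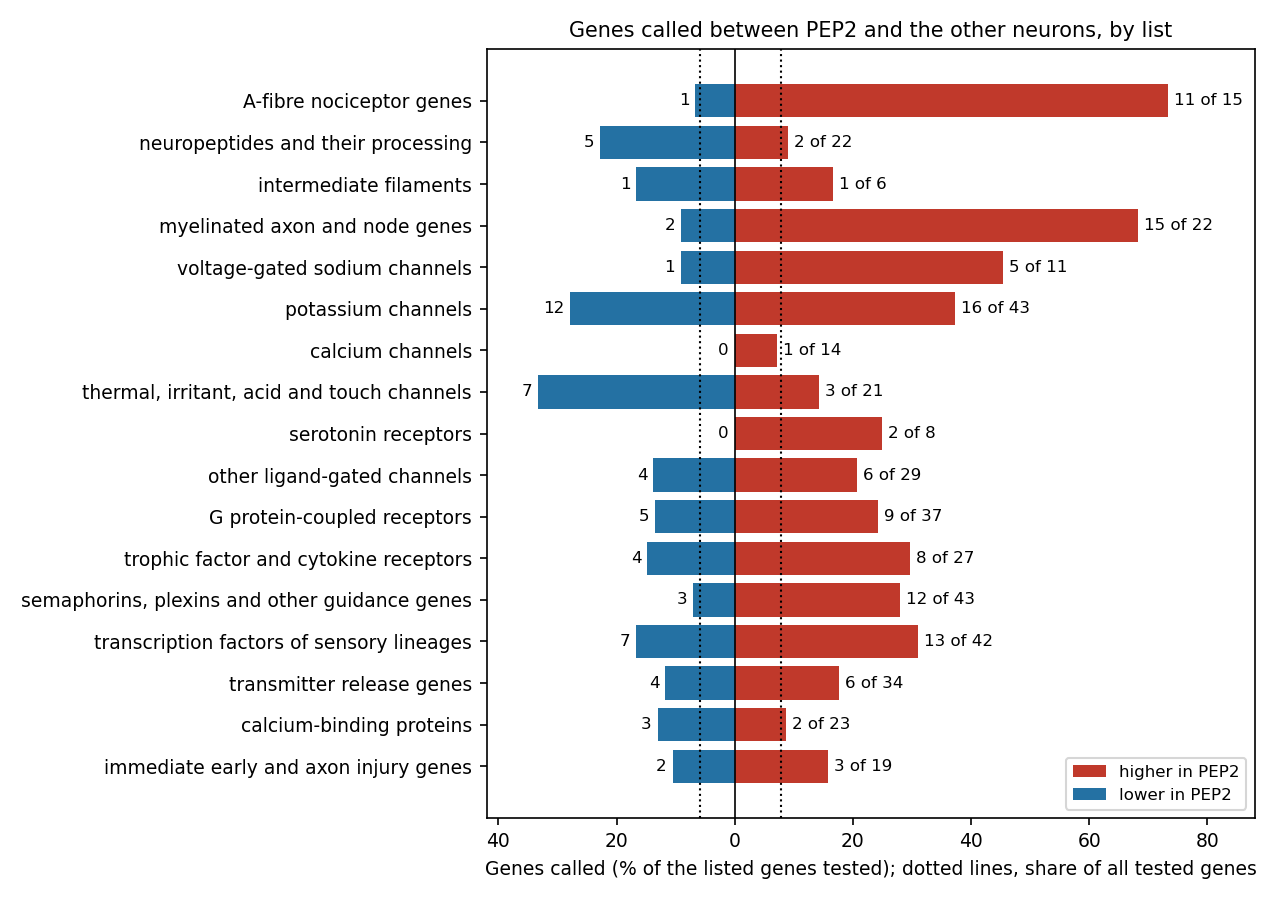
For the lists other than the defining genes and the markers or names of other cells, the share of the tested members of each called higher (red, to the right) and lower (blue, to the left) in PEP2 against the other neurons, in percent, with the counts beside the bars. Dotted lines mark the shares over all genes tested, 7.88% higher and 5.83% lower; of the lists drawn, the A-fibre nociceptor and the myelinated axon lists reach farthest to the right, with 11 of 15 and 15 of 22.

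Of 15 genes listed for A-fibre nociceptors, all were tested and 11 were called higher in PEP2 than in the other neurons and 1 lower, with a median log2 fold change of 1.38 (all genes tested, -0.02). The list was drawn up with these data known, so its direction is no independent evidence. Calca, which encodes calcitonin gene-related peptide, stood at 7853, 4510.3, 7372, 7476 and 6364 CPM in PEP2 and at 2462 to 3072 in the other neurons, with a log2 fold change of 1.28 ± 0.15 (SE). The mouse 1 value, the highest, leans on the cell of 270654 UMIs, which alone held 5693 Calca UMIs (21034 CPM). A Calca UMI was found in 205 of 206 PEP2 cells, and the 20 highest cells held 36.8% of the Calca UMIs. Calca was higher still in the 3 PEP1 types (means of 9700.1 to 13435 CPM) and in NP_Mrgpra3 (8599 ± 1625, overlapping PEP2), and the PEP2 sums lay below every PEP1 sum (8593 to 13329.8 CPM) without passing the 2-fold limit (-0.80 ± 0.17).

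Scn10a, the tetrodotoxin-resistant sodium channel Nav1.8 of nociceptors, stood at 382, 321, 461, 384 and 446 CPM in PEP2, the highest mean of any type, with NP_Mrgpra3 next at 246 ± 61.2 and overlapping it. Every PEP2 value was above every value of the other neurons (159 to 194), NF_Calb1 (12.9 to 128) and PEP1 (123 to 173). Bmpr1b, a type I receptor for bone morphogenetic proteins, stood at 10.5, 13.99, 14.2, 12.9 and 17.5 CPM and at 0.372 to 0.796 CPM in the other neurons (4.63 ± 0.23). Its rise was the largest of the 15, and 52.4% of PEP2 cells had a UMI of it against 3.21% of satellite glia. Kit, the receptor for stem cell factor, stood at 43.7, 91.3, 98.6, 102 and 137 CPM in PEP2 and at 66.9 to 97.3 in PEP1, with overlapping ranges, and at no more than 1.25 in NF_Calb1. It was called higher than in the other neurons (2.79 ± 0.23). Fam19a1, a secreted chemokine-like protein, stood at 34.8, 68.2, 90.2, 96.3 and 96.5 CPM against 3.26 to 9.93 in the other neurons (3.85 ± 0.29). Cpne6, a calcium-dependent membrane-binding copine, stood at 521, 651, 627, 460.4 and 445 CPM against 47.3 to 139 (2.64 ± 0.24). NF_Calb1 overlapped PEP2 in Cpne6, at 517 to 815 CPM. Fam19a1 and Cpne6 were above every value of the other neurons in all 5 mice.

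Prdm8, a transcriptional repressor, stood at 32.4, 32.3, 30.1, 39.9 and 46.2 CPM against 11.8 to 16.1 in the other neurons (1.38 ± 0.14). Gpr149, an orphan receptor, stood at 4.86, 6.36, 7.76, 6.13 and 10.9 CPM against 1.75 to 3.03 (1.69 ± 0.22). Cntnap2, the contactin-associated protein Caspr2, stood at 139, 158, 192, 149 and 201 CPM against 55.5 to 92.8 (1.18 ± 0.13). In each of these 3 genes no mouse of PEP2 met the range of the other neurons. The receptor-type phosphatase Ptprt went the other way and was called lower, at 0.809, 9.41, 2.26, 0.9202 and 3.78 CPM against 69.1 to 105 (-4.49 ± 0.33). Npy2r, a neuropeptide Y receptor, stood at 17.8, 24.2, 33.9, 47.5 and 39.998 CPM and was not called against the sum of other neurons (17.3 to 43.9, 0.17 ± 0.26). With the types counted equally it was called higher, at 4.32. NP_Nts alone had 284 ± 27.5 CPM of it (SD). PEP2 ranked second among the types, and Npy2r was called higher there than in NF_Calb1 (4.80 ± 0.33) and PEP1 (1.87 ± 0.21). Piezo2, the mechanically gated channel of touch, stood at 237, 332, 309, 271 and 314 CPM, was not called against the other neurons (0.38 ± 0.11) or NF_Calb1 (-0.19 ± 0.12), and was higher than in PEP1 (2.17 ± 0.19). Gfra1, a co-receptor for glial cell line-derived neurotrophic factor, stood at 33.99, 38.7, 38.2, 15.95 and 28.1 CPM and was called lower than in NF_Calb1 (132 to 186, -2.26 ± 0.18) but not against the other neurons (-0.48 ± 0.18).

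Most genes of the myelinated axon and its node were called higher in PEP2 than in the other neurons and in PEP1. Of 23 listed, 22 were tested against each comparator. Against the other neurons 15 were called higher and 2 lower (median log2 fold change 1.22), against PEP1 19 were higher and none lower (median 2.71), and against NF_Calb1 none were higher and 8 lower (median -0.72). By mean level 19 of the 23 had a PEP2 value between those of PEP1 and NF_Calb1. Kcna1, the Kv1.1 channel beside the node, stood at 686, 582, 652, 461 and 589.6 CPM in PEP2, 1287 to 1929 in NF_Calb1 and 3.93 to 29.6 in PEP1, with no overlap between the 3 groups. Scn8a, the nodal sodium channel Nav1.6, stood at 216, 178, 245, 189.6 and 219.7 CPM against 332 to 512 in NF_Calb1 and 2.81 to 8.87 in PEP1. Cntn1, the adhesion molecule contactin of the paranode, was at 708 ± 173 CPM against 1522 ± 198 in NF_Calb1 (-1.06 ± 0.16) and 8.08 ± 4.98 in PEP1 (6.21 ± 0.30).

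Its partner Cntnap1, the paranodal Caspr, was at 113 ± 12.4 CPM in PEP2, 25.6 ± 10.05 in the other neurons (2.13 ± 0.21) and 7.75 ± 2.42 in PEP1 (3.71 ± 0.16). Nrcam, a nodal adhesion molecule, was at 67.9 ± 15.5 CPM against 17.7 ± 9.94 in the other neurons (1.92 ± 0.30). Thy1, a surface glycoprotein of neurons with large axons, did not follow this order: at 1393, 1602, 1419, 1827 and 1756 CPM its 5 PEP2 values were above all 5 of NF_Calb1 (949 to 1129), by 0.63 ± 0.12 and so under the 2-fold limit, and above the other neurons by 2.96 ± 0.14. Spp1, the secreted osteopontin, was among the genes called lower than in the other neurons (2.44 ± 1.25 against 44.9 ± 13.3 CPM, -4.24 ± 0.31).

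Of 6 intermediate filament genes, Nefh, the heavy neurofilament chain, was called higher in PEP2 than in the other neurons and Ina lower. Nefh stood at 3006, 2842, 2870.2, 2253 and 2647 CPM in PEP2, 4572 to 6665 in NF_Calb1, 492 to 1346 in the other neurons and 136 to 233 in PEP1, and none of these ranges met that of PEP2. The log2 fold change was 1.59 ± 0.21 against the other neurons and 3.84 ± 0.17 against PEP1, and -0.92 ± 0.14 against NF_Calb1, under the 2-fold limit. The same order held for the light chain Nefl (4249.8 ± 1071 CPM in PEP2, 6983 ± 549.7 in NF_Calb1, 926 ± 178 in PEP1) and the middle chain Nefm (1974 ± 164, 5356 ± 715 and 468 ± 88.1). Prph, the peripherin of thin fibres, ran the other way, at 2984 ± 428 CPM in PEP2, 1856 ± 162 in NF_Calb1 and 4214 ± 145 in PEP1, with no call. Ina, alpha-internexin, was at 1.44 ± 1.94 CPM in PEP2 and at 56.7 ± 5.81 in the other neurons (-5.05 ± 0.35). Myelination itself was not measured.

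**Figure D3:**
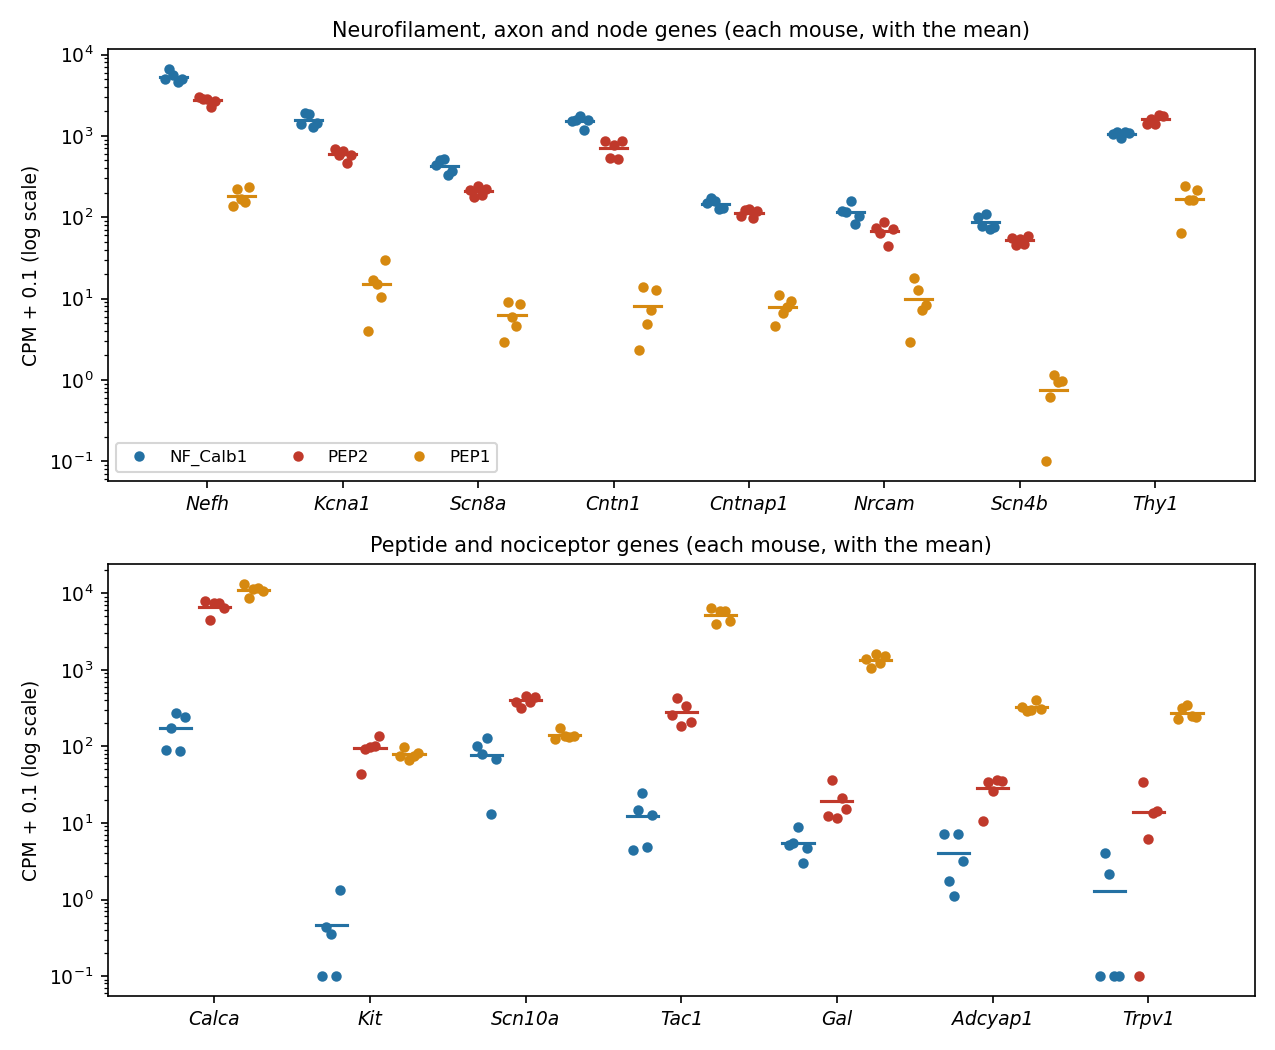
CPM plus 0.1 on a log axis for each of 5 mice (points, with the mean as a bar) in NF_Calb1 (blue), PEP2 (red) and the summed PEP1 types (orange). In the upper panel, of neurofilament, axon and node genes, the PEP2 values lie above PEP1. Those of Nefh, Kcna1 and Scn8a lie below NF_Calb1, and those of Thy1 above it. In the lower panel Calca and Kit lie near PEP1, Scn10a is above NF_Calb1 and PEP1, and Tac1, Gal, Adcyap1 and Trpv1 fall well under PEP1.

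Of 29 genes for neuropeptides and their processing, 22 were tested against the other neurons, and 2 were called higher and 5 lower. The higher genes were Calca and Pcsk1, a prohormone convertase (42.6 ± 15.8 against 11.6 ± 5.53 CPM, 1.86 ± 0.27). Tac1, which encodes substance P, stood at 261, 423, 183, 337 and 210.3 CPM in PEP2, 833 to 1369.5 in the other neurons and 3944 to 6361 in PEP1, and it was called lower in both comparisons (-2.06 ± 0.22 and -4.28 ± 0.24). Of the markers that check the peptidergic label, Calca and Scn10a were thus higher in PEP2 than in the other neurons and Tac1 lower. The 20 highest cells held 83.2% of the 4708 Tac1 UMIs of PEP2, so the Tac1 sum does not describe the typical cell. Gal, galanin, was at 19.2 ± 10.2 CPM against 1359 ± 228 in PEP1 (-6.16 ± 0.28). Adcyap1, the peptide PACAP, was at 28.4 ± 10.8 against 325 ± 48.5 (-3.51 ± 0.20). With each other type counted equally, the values against the other neurons were -0.52 for Tac1 and -0.31 for Gal, neither past the threshold. Against NF_Calb1 all 3 were called higher, among 8 higher and 2 lower of 18 tested. Scg3, a granule protein, was at 194 ± 27.6 CPM against 827 ± 74.4 in the other neurons (-2.13 ± 0.12). With the types counted equally Scg3 stood at -0.77, under the 2-fold limit. Calcb, whose sequence is close enough to Calca that reads may be shared, was at 583 ± 256 against 527 ± 43.8 with no call.

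Of 36 receptors for trophic factors and cytokines in the file, 27 were tested against the other neurons, with 8 called higher and 4 lower. Beside Kit and Bmpr1b, Ngfr, the p75 neurotrophin receptor, stood at 891, 1014, 1127, 918 and 1126 CPM against 93.6 to 188 in the other neurons (2.85 ± 0.18), 446 to 605 in NF_Calb1 and 233 to 444 in PEP1, so PEP2 was above all 3, with the NF_Calb1 difference under 2-fold. Ret, the receptor subunit for the glial cell line-derived factor family, stood at 45.3, 64.9, 35.2, 12.3 and 50.3 CPM against 237 to 328 (-2.73 ± 0.28) and was called lower in all 3 comparisons. Among its co-receptors, Gfra2 was at 7.89 ± 5.08 CPM against 106 ± 12.1 and Gfra3 at 8.59 ± 8.07 against 96.6 ± 16.8, both called lower, though not past the threshold with the types counted equally. Osmr, the oncostatin M receptor, was at 3.07 ± 2.66 against 43.3 ± 11.1 (-3.70 ± 0.34), also lost in that fit. Ntrk3, the receptor TrkC, was at 55.5 ± 29.8 CPM in PEP2, below NF_Calb1 (341 ± 75.6) and above PEP1 (1.57 ± 1.27).

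Of 11 voltage-gated sodium channel genes 5 were called higher than in the other neurons and 1 lower. Scn2b, an auxiliary subunit, was at 75.6 ± 22.7 CPM against 14.9 ± 2.11 (2.32 ± 0.17) and 2.44 ± 1.49 in NF_Calb1, and Scn4b at 51.9 ± 5.95 against 16.95 ± 7.71 (1.60 ± 0.24) and 0.657 ± 0.413 in PEP1. Scn11a, the persistent-current channel Nav1.9 of thin fibres, was at 78.6 ± 19.8 CPM against 173 ± 19.1 (-1.18 ± 0.14), but the direction turned to 0.77 with the types counted equally. Scn9a, the channel Nav1.7, was at 385 ± 67.2 CPM and above the other neurons in every mouse (0.63 ± 0.12) without reaching 2-fold.

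Potassium channels moved in both directions, with 16 higher and 12 lower of 43 tested among 48 listed against the other neurons. Kcnv1, a silent modifier subunit of Kv2 channels, stood at 81.7, 65.1, 89.9, 60.4 and 81.99 CPM against 3.96 to 5.57 in the other neurons (4.03 ± 0.14) and 0.587 to 3.74 in NF_Calb1. Kcnip1, a partner of Kv4 channels, was at 99.5 ± 8.54 CPM against 13.3 ± 2.25 (2.87 ± 0.13). Kcnq5, an M-current subunit, was at 30.6 ± 4.42 against 5.61 ± 1.303 (2.42 ± 0.16). The 2-pore genes Kcnk13 and Kcnk12 and the Kv4 partner Kcnip2 were the lowest, at 0.192 ± 0.331, 6.14 ± 1.26 and 2.62 ± 2.73 CPM against 16.1 ± 1.22, 53.8 ± 6.901 and 92.2 ± 10.3. Of 17 calcium channel genes in the file 14 were tested and 1, the P/Q-type pore Cacna1a, was called higher (55.5 ± 6.802 against 25.9 ± 9.19 CPM, 1.07 ± 0.21). That count is no excess over the 7.88% called higher over all genes tested.

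Among 28 channels for heat, irritants, acid and touch in the file, 21 were tested, with 3 called higher and 7 lower than in the other neurons. Asic3, an acid-sensing channel, stood at 253, 170.2, 326, 239 and 251 CPM against 9.49 to 37.8 in the other neurons (3.64 ± 0.31), 70.4 to 144 in NF_Calb1 and 32.02 to 68.5 in PEP1, and was called higher than each. Asic1 was at 43.4 ± 6.695 against 17.6 ± 4.37 (1.27 ± 0.16). Trpv1, the heat and capsaicin channel, stood at 0, 34.3, 6.14, 13.5 and 14.1 CPM against 60.6 to 97.6 in the other neurons and 229.7 to 343 in PEP1 (-4.24 ± 0.37). Only 24.8% of PEP2 cells had a Trpv1 UMI (2.01% of satellite glia), and the 20 highest cells held 85.9% of its 269 UMIs, so its sum does not describe the typical cell. The irritant channel Trpa1 was at 3.33 ± 2.92 CPM against 32.5 ± 5.33, and Trpc6 at 0.799 ± 0.859 against 13.4 ± 0.784, both called lower. The falls of Trpv1, Trpa1 and Trpc6 against the other neurons were not past the threshold with the types counted equally.

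Of 13 serotonin receptors in the file 8 were tested and 2, both subunits of the 5-HT3 channel, were called higher than in the other neurons. Of these, Htr3a names the type, so its call is no separate evidence. Htr3b, which joins Htr3a in the channel, stood at 70.4, 47.6, 64.3, 56.1 and 64.9 CPM against 6.995 to 11.7 (2.64 ± 0.15), and its mean was the highest of the 14 types, though NF2_Ntrk2.Necab2, next at 40.99 ± 17.5, overlapped it. Htr1d, an inhibitory receptor, was at 4.06 ± 2.71 CPM against 60.6 ± 8.99 in NF_Calb1, where it was called lower in PEP2 (-4.06 ± 0.27). Of 35 other ligand-gated channel genes 29 were tested, with 6 higher and 4 lower. The nicotinic subunits Chrna3 and Chrnb4 were called higher (2.99 ± 0.49 and 2.58 ± 0.40), but Chrna3 ranged from 8.91 to 91.4 CPM over the 5 mice and overlapped the other neurons (3.17 to 10.5). The 20 highest cells held 72.3% of the 701 Chrna3 UMIs of PEP2, so its sum does not describe the typical cell. Gria4, an AMPA receptor subunit, was at 31.96 ± 8.16 against 11.7 ± 3.34 (1.43 ± 0.21). P2rx6, an ATP-gated subunit, was at 14.9 ± 5.27 against 6.696 ± 2.999 (1.07 ± 0.31). The kainate subunit Grik1 was at 10.6 ± 10.9 against 249 ± 29.4 (-4.43 ± 0.44). The P2rx6 call was lost without mouse 1 (1.06), 2 (1.16), 4 (0.91) or 5 (1.11) and the Grik1 call with the types counted equally.

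Of 54 G protein-coupled receptors in the file 37 were tested, with 9 called higher and 5 lower. Ptgir, the prostacyclin receptor, was at 106 ± 26.9 CPM against 14.1 ± 3.76 (2.87 ± 0.19). Grm5, a glutamate receptor, was at 6.37 ± 1.47 against 0.516 ± 0.09098 (3.55 ± 0.23). Gpr158, a glycine-binding receptor, was at 135 ± 28.4 against 23.7 ± 7.45 (2.49 ± 0.19). Npy1r, a neuropeptide Y receptor, was at 1.66 ± 1.86 CPM against 34.7 ± 4.26 in the other neurons and 173 ± 20.4 in PEP1, and was called lower than in both (-4.37 ± 0.34 and -6.68 ± 0.32). Lpar3 was at 3.82 ± 4.75 against 137 ± 38.3 (-4.88 ± 0.43), a call lost with the types counted equally.

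Of 63 guidance genes 43 were tested, with 12 higher and 3 lower. The 12 include Sema5a, which names the type, so its call is no separate evidence. Nrp2, a semaphorin co-receptor, stood at 129, 164, 148, 157 and 180.1 CPM against 14.1 to 23.6 (3.04 ± 0.15) and was above NF_Calb1 and PEP1 in every mouse, and Plxna4, a plexin, was at 151 ± 18.9 against 25.1 ± 7.72 (2.56 ± 0.18). Plxnc1 was at 12.4 ± 5.896 against 99.9 ± 11.6 (-2.96 ± 0.21). Efnb1 was at 0.864 ± 0.669 against 8.93 ± 1.34 (-3.19 ± 0.29) and Plxna1 at 4.54 ± 1.76 against 10.6 ± 2.96 (-1.28 ± 0.27). With the types counted equally Plxna1 stood at -0.71, under the 2-fold limit. Of 48 transcription factors of sensory lineages in the file 42 were tested, with 13 higher and 7 lower. Bcl11b, a zinc finger repressor, was at 62.8 ± 16.97 CPM against 9.87 ± 1.21 (2.65 ± 0.15), Nfib at 82.3 ± 19.3 against 12.9 ± 3.67 (2.65 ± 0.19) and Zeb2 at 80.8 ± 18.5 against 16.6 ± 3.91 (2.26 ± 0.17). Runx1, which marks much of the C-fibre lineage, stood at 9.71, 26.5, 12.9, 9.82 and 20.3 CPM against 136 to 151 (-3.16 ± 0.20), and Runx3, of the proprioceptor lineage, had 1 UMI in all PEP2 cells against 22.01 to 73.8 CPM in NF_Calb1. Klf5, Pou4f2 and Ldb2 were the lowest by fold, at 3.45 ± 2.400, 0.628 ± 0.852 and 23.1 ± 6.36 CPM against 90.4 ± 24.1, 8.65 ± 1.21 and 205 ± 21.5, and the Pou4f2 call was lost with the types counted equally.

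Of 36 transmitter release genes in the file 34 were tested, with 6 higher and 4 lower. Cplx2, a complexin that clamps vesicle fusion, stood at 371, 459.8, 560.3, 505 and 584 CPM against 28.6 to 68.4 (3.42 ± 0.22). Sv2b, a vesicle protein, was at 195 ± 45.5 against 49.5 ± 18.5 (1.96 ± 0.22). Syt5, a vesicle calcium sensor, was at 37.9 ± 8.64 against 197 ± 13.1 (-2.40 ± 0.14). Syt1 and Syt9 were also called lower (-1.54 ± 0.10 and -1.23 ± 0.15), and Syt2 higher (1.52 ± 0.27). With the types counted equally Syt5 stood at -0.71 and Syt9 at -0.41, both under the 2-fold limit. In that fit the list held 11 higher and 1 lower. Of 25 calcium-binding proteins in the file 23 were tested, with 2 higher, near the 7.88% over all genes tested, and 3 lower (5.83% over all genes). S100b was at 2454 ± 349 CPM against 545 ± 184 (2.14 ± 0.20) and S100a13 at 739 ± 143 against 285 ± 19.9 (1.34 ± 0.14), while Pvalb was at 6.903 ± 3.08 against 127 ± 36.7 (-4.40 ± 0.26) and S100a4 at 12.01 ± 2.58 against 25.5 ± 4.21 (-1.10 ± 0.16, lost with the types counted equally). S100b is also abundant in glia.

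Gap43, the growth-associated protein of axons, was highest in PEP2 among the 14 types, at 1496, 1522, 1630.2, 1903 and 1548 CPM against 266 to 347 in the other neurons (2.43 ± 0.12), 138 to 196 in NF_Calb1 (3.31 ± 0.14) and 1053 to 1247 in PEP1 (0.44 ± 0.12, not called). It belonged to a list of 20 immediate early and axon injury genes, of which 3 (Gap43, Btg2 and Nr4a1) were higher and 2 (Hspa1a and Ier2) lower among 19 tested against the other neurons. With the types counted equally 2 were higher and none lower, with Btg2 at 0.98, Hspa1a at -0.59 and Ier2 at -0.61. Against PEP1 the list held 1 higher and 10 lower of 18 tested (median log2 fold change -1.11). Jun was at 208 ± 33.1 CPM in PEP2 and 729.5 ± 121 in PEP1 (-1.87 ± 0.14). Atf3, induced in injured and dissociated neurons, was at 105 ± 25.7 and 269 ± 35.3 (-1.42 ± 0.15). Hspa1a, which shares sequence with Hspa1b, was at 15.8 ± 8.19 against 56.2 ± 34.9 (-1.88 ± 0.38).

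Over all genes, the largest called rises against the other neurons that held in 5 of 5 mice were Smr2, Prokr2, Chp2, Myh3, Arsj, E130114P18Rik, Bmpr1b and Gng8. Smr2 marks the type, so its place here is a description. Prokr2, a receptor for prokineticins, stood at 45.3, 71.8, 40.7, 37.4 and 61.3 CPM against 0.258 to 1.38 (5.69 ± 0.33), and was called higher than in NF_Calb1 and PEP1 too. Chp2, a calcineurin-like calcium sensor, was at 24.97 ± 3.43 against 0.547 ± 0.421 (5.45 ± 0.30). Gng8, a G protein gamma subunit, was at 341 ± 132 against 13.7 ± 4.99 (4.61 ± 0.31). Myh3, Arsj and E130114P18Rik were rarer, with means of 4.16, 5.91 and 8.78 CPM. The largest falls were P2rx2, Car8, Cmtm8, Fam178b, B3gat2, Kcnk13, Nnat and Fgg, each with 13 or fewer UMIs in all 206 PEP2 cells, and their mean levels in the other neurons ran from 8.49 CPM for B3gat2 to 46.3 for Nnat. The calls of P2rx2 and Fam178b were lost with the types counted equally.

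Against NF_Calb1 the largest rises were Chrna3, Scgn, Kit, Arsj and C1qtnf7. The Chrna3 rise rests on a minority of PEP2 cells, with a UMI in 71 of 206. No UMI of Scgn, the calcium sensor secretagogin, or of Arsj was found in the 180 NF_Calb1 cells, and against the level that 3 UMIs in all of them would give (0.202 CPM) PEP2 was at least 55.4-fold higher for Scgn and at least 31.4-fold higher for Arsj. The largest falls were Slit2, Cdh3, Mme, Calb1 and Ntng1. No PEP2 cell held a UMI of the repellent ligand Slit2, the cadherin Cdh3 or the endopeptidase Mme, and against the level of 3 UMIs in all PEP2 cells (0.181 CPM) they were at least 92.8-fold, 67.9-fold and 62.4-fold lower. Calb1, the calbindin that names the other type, was at 1.04 ± 0.362 CPM in PEP2 and 208 ± 89.9 in NF_Calb1. Against PEP1 the largest rises were Fat3, S100a16, Cntn1, Slc22a2 and Tmem132c, with S100a16 at 301 ± 75.6 CPM against 3.46 ± 1.21 (6.29 ± 0.22). Among the largest falls were Car8, Gpx3, Fgg and Sstr2, with the secreted antioxidant enzyme Gpx3 at 7.703 ± 4.66 CPM against 1516 ± 346 (-7.55 ± 0.30).

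Of 14 genes that name the other neuron types, 13 were tested against the other neurons, none was called higher and 3 (Mrgprd, Necab2 and Pvalb) were lower. That sum holds the types these genes name, so the lack of higher calls was close to set in advance. Against NF_Calb1 4 of 8 tested were higher (Dcn, S100a11, Tagln2 and Th) and 4 lower. Against PEP1 none of 9 was higher and 5 were lower. With the types counted equally 2 were higher and 2 lower. Some of the 14 were present in PEP2: Tagln2 at 215 ± 93.4, S100a11 at 185 ± 74.3 and Dcn at 50.1 ± 17.5 CPM, below PEP1 (567 ± 69.2, 837 ± 117 and 179 ± 109). Mrgprd was at 3.24 ± 3.67, Th at 21.1 ± 10.1, Trpm8 at 0.6997 ± 0.187 and Mrgpra3 at 0.429 ± 0.306 CPM. A Dcn UMI was found in 113 of 206 PEP2 cells and a Th UMI in 53. The 20 highest cells held 68.5% of the 857 Dcn UMIs and 82.3% of the 384 Th UMIs. The Dcn and Th sums thus do not describe the typical PEP2 cell. The Mrgprd fall turned to a log2 fold change of 1.33 with the types counted equally. Of markers of other cells, the 10 satellite glia genes summed to 467 to 1047.5 CPM in PEP2 and to 429 to 622 in the other neurons, higher in PEP2 in 5 of 5 mice, and none of the 8 tested against the other neurons was called. Against PEP1 1 of 7 tested, Fabp7, was called higher in PEP2, and with the types counted equally 1 of 9 was. Leaving out Apoe, Glul and Dbi, which neurons also express, 16 of 206 PEP2 cells were over 500 CPM and the median cell had 5.67. The 7 Schwann cell genes summed to 378 to 556 CPM in PEP2 and 497 to 633 in the other neurons, with Mag and Cldn19 at 0. None of the 4 tested against the other neurons was called, and Mbp, 1 of 2 tested, was called higher than in NF_Calb1. With the types counted equally 1 of 4 was called higher. The 8 endothelial genes summed to 112 to 156 CPM against 40.03 to 54.6, nearly all of it Egfl7 (127 ± 18.2) and Esam (12.3 ± 2.198), both called higher, while the defining genes Pecam1, Cldn5, Cdh5, Kdr and Flt1 had means of at most 0.467 CPM and Tek was at 0. The 9 fibroblast and macrophage genes summed to 4.86 to 7.44 CPM against 2.29 to 5.70, with Csf1r and C1qa at 0. The part of these other cells in the results was not tested.

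Over 16248 genes with at least 10 UMIs, the log2(CPM + 1) sums of PEP2 were most like those of NF_Calb1 (Pearson's r 0.946 ± 0.009, SD over 5 mice), followed by PEP1_S100a11.Tagln2 (0.932 ± 0.018), PEP1_Dcn (0.927 ± 0.031) and PEP1_Slc7a3.Sstr2 (0.922 ± 0.014). NF_Calb1 was the most alike in 3 of 5 mice and a PEP1 type in the other 2, so the order of the nearest types was not the same in every mouse. The least alike neuron type was NP_Nts (0.881 ± 0.013), and satellite glia had 0.703 ± 0.031. These correlations are across genes of sums from 1 library a mouse, and genes are no independent replicates.

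The PEP2 cells were not alike among themselves. A Smr2 UMI was found in 63 cells and a Bmpr1b UMI in 108, with 20 cells holding both, 43 Smr2 alone, 88 Bmpr1b alone and 55 neither. Of the Smr2 cells 31.7% had a Bmpr1b UMI (exact 95% interval 20.6% to 44.7%, counting error only), against 61.5% of the other cells. The share was lower among Smr2 cells in each mouse, at 60%, 42.9%, 35.7%, 16.7% and 22.2% against 62.5%, 59.3%, 52.4%, 67.9% and 62.7%. With the cells thinned to 20000 UMIs it was 12.5% against 26.7%, lower in mice 1, 4 and 5 and higher in mouse 2 (28.6% against 18.2%) and mouse 3 (37.5% against 26.9%), so the lower share did not hold in each mouse at equal depth. Kit separated more fully, a pairing that was chosen after its values were seen: 7 of 63 Smr2 cells had a Kit UMI (11.1%) against 112 of 143 other PEP2 cells (78.3%). By mouse the Kit share was 0%, 21.4%, 14.3%, 0% and 11.1% of Smr2 cells against 62.5%, 81.5%, 76.2%, 82.1% and 78.0% of the others. Smr2 cells held more UMIs (median 90432 against 67186), and with 201 cells thinned to 20000 UMIs the shares were 5.00% of 40 and 65.2% of 161. In satellite glia 16.1% of cells had a Kit UMI at a median of 17729 UMIs, and in NF_Calb1 3.33% did at a median of 77900 UMIs. The 7 cells with both genes held 8 to 20 Kit UMIs each (50.5 to 329 CPM), and 6 of them held a single Smr2 UMI.

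**Figure D4:**
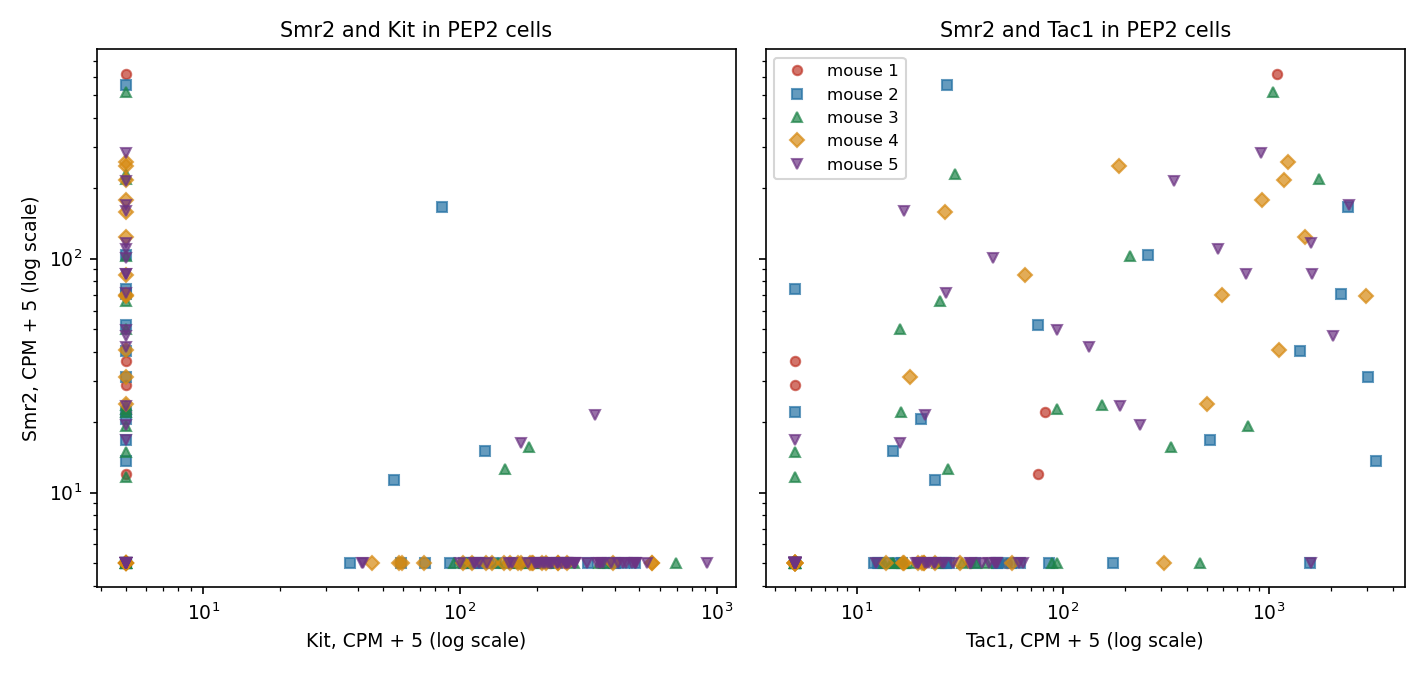
Each point is 1 of 206 PEP2 cells, marked by mouse, with Smr2 on the vertical axis against Kit (left) and Tac1 (right), all as CPM plus 5 on log axes, so that cells with no UMI sit at 5. On the left the cells lie along the axes, with 7 cells holding both Smr2 and Kit; on the right many of the Smr2 cells, from all 5 mice, are at high Tac1, with a single such cell in mouse 1.

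Sums of the Smr2 cells (5, 14, 14, 12 and 18 cells in mice 1 to 5) were set beside sums of the other PEP2 cells (8, 27, 21, 28 and 59). Smr2 cells were chosen by a UMI of a sparse gene, so the values are a description with no test, and the genes named here were chosen after their values were seen. The cell of mouse 1 with the most Smr2 UMIs decided some of these values. Of 10301 genes with at least 50 UMIs in PEP2, Smr2 aside, 2.15% had all 5 values above the 5 of the other cells and 3.68% had all below. Tac1 stood at 498, 995, 326, 949 and 683 CPM in Smr2 cells and at 9.98, 95.3, 23.3, 28.2 and 30.8 in the others, with no overlap. Calca stood at 11774, 7144, 9555, 12270.5 and 10512 against 3714, 2999, 4938, 5055 and 4787 CPM. Asic1 was at 94.6 ± 29.1 against 12.7 ± 11.3 CPM (SD). The ETS factor Etv1 was at 38.5 ± 11.2 against 8.19 ± 5.45. Kcnv1 was at 129 ± 18.3 against 42.7 ± 14.3. The serotonin receptor Htr1a was at 12.1 ± 6.26 against 0.928 ± 1.19 and Plxnd1 at 54.2 ± 6.23 against 16.5 ± 2.66. For each of these genes the lowest Smr2 sum was above the highest of the others.

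The other PEP2 cells were the higher in Kit, with 89.8, 133, 184, 153 and 179.6 CPM against 0, 19.5, 22.1, 0 and 25.3 in Smr2 cells. Sema5a, which names the type, stood at 166, 137, 223, 108 and 168 CPM in the other cells and at 53.6, 50.9, 61.3, 27.4 and 54.2 in Smr2 cells. The factor Bcl11a had 333 UMIs in the other cells and 7 in Smr2 cells. Prokr2 was at 73.2 ± 14.4 against 19.2 ± 14.6 CPM. The ATP-gated channel P2rx3 was at 166 ± 41.2 against 50.5 ± 30.3. Scn11a was at 107 ± 29.9 against 32.6 ± 23.97. S1pr3 was at 157 ± 36.4 against 31.1 ± 22.6. Nrp2 was at 211 ± 13.9 against 80.03 ± 25.4 and Piezo2 at 353 ± 43.9 against 206 ± 42.6. None of these genes overlapped between the sets. Genes shared by both sets of cells included Htr3a (749.7 ± 80.3 in Smr2 cells against 578 ± 196), Scn10a (470.3 ± 62.04 against 352 ± 67.3), Nefh (2287 ± 393 against 3009 ± 328), Thy1 (1434 ± 177 against 1705 ± 213) and Gap43 (1543 ± 273 against 1629 ± 268), whose ranges over mice overlapped. Mouse 1 enters with 5 and 8 cells, and its Smr2 sum holds the cell of 270654 UMIs. Without this cell, an alternative chosen after seeing the data, its 4 remaining Smr2 cells stood at 52.2 CPM of Tac1, 4886 of Calca, 38.5 of Kcnv1, 0 of Htr1a, 126 of P2rx3 and 76.9 of Scn11a, so the 2 sets of cells overlapped for these 6 genes. For Asic1, Etv1, Plxnd1, Kit, Sema5a, Bcl11a, Prokr2, S1pr3, Nrp2 and Piezo2 they still did not overlap, and over all genes 1.57% were above and 2.66% below.

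**Figure D5:**
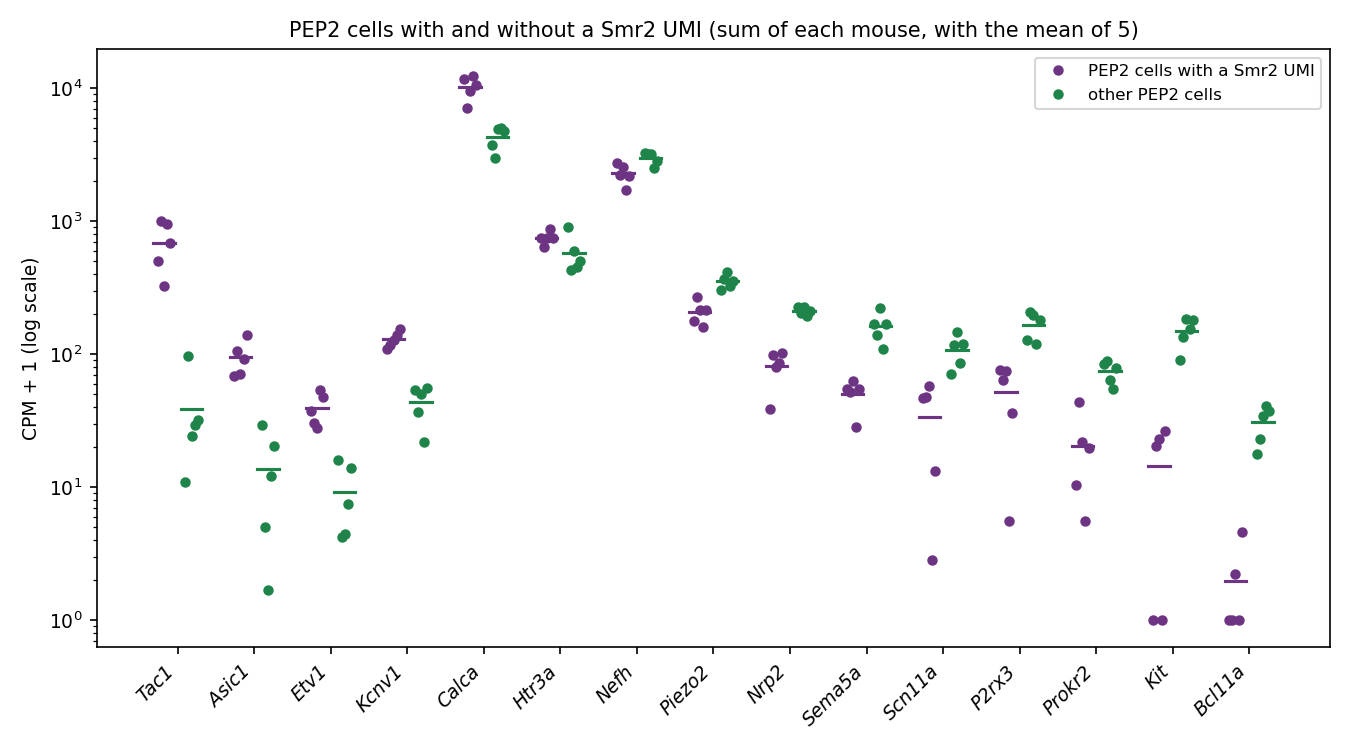
CPM plus 1 on a log axis for sums of the PEP2 cells with a Smr2 UMI (purple) and of the other PEP2 cells (green), 1 point for each of 5 mice with the mean as a bar. The purple points lie above the green ones from Tac1 to Calca, the ranges meet for Htr3a and Nefh, and the purple points lie below from Piezo2 to Bcl11a.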

How the data were processed

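Single-cell 3' RNA libraries of 5 mice were deposited by the authors as 1 table of raw UMI counts, with 17271 gene rows and no normalization, and a table of cell type names. Per the study's methods the authors ran Cell Ranger on mm10, integrated the libraries with Seurat and named the clusters from marker genes; they state a limit on the mitochondrial share of a cell, but 26 PEP2 cells lie over 10% in the rows counted here. Doublets were not called, and 6 PEP2 cells held over 2 times the median UMIs. The annotation spells NF_Calb1 with a digit in place of the letter l. Libraries are the identifiers in the cell names and could not be tied to the sex or replicate labels of the samples.

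UMIs were summed per mouse and type (total UMIs per library 13050375 to 88886919). The sums entered edgeR (version 4.0.16, R 4.3.3; TMM, filterByExpr, quasi-likelihood test, Benjamini-Hochberg over all genes tested); log2 fold changes carry standard errors. P-values measure the spread between the 5 libraries. Both sums of a comparison come from the same mice, so numbers pair them: deviations from the group means of same-mouse sums correlated at 0.107 to 0.343 (other neurons), 0.0383 to 0.426 (NF_Calb1) and 0.0983 to 0.384 (PEP1). Alternatives were DESeq2 1.42.0, no filter, a mouse block, leaving out each mouse, cells over 10% mitochondrial or of high UMI count left out, other thresholds and other comparators. Intervals and floors (3 UMIs) cover counting error only. The 4 rows that name no mouse gene (6.37e-05% of UMIs) were left out. Gene positions are from RefSeq's GRCm38.p6 table. The script was tested on simulated counts.

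The cells, gene lists and tests were chosen with earlier results of these data known. Named genes were all members of the defining and A-fibre lists, up to 3 called genes with the highest and up to 3 with the lowest log2 fold change against other neurons in each other list, the 8 largest rises and falls against other neurons, the 5 largest of the other comparisons, and a few reference genes (Trpv1, Tac1, Th, Pvalb, Calb1, Prph, Nefl and Nefm). Other list members appear with values where a list is counted. Some genes that this rule names are not reported here, though the list counts hold them.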

Additional observations from a re-analysis of the deposited data

Results flagged for a closer look

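In sets of 5 mouse values, 2 of 31 examined had a highest or lowest mouse far from the others by Dixon's test, and chance flags about 1 set in 20. Smr2 in PEP2 stood at 139 CPM in mouse 1 and at 24.5 to 39.9 CPM in the other mice, with 1 cell holding 166 of the 172 UMIs. Nefm in PEP2 stood at 1694 CPM in mouse 4 and at 1988 to 2104 CPM in the other mice. The row EC18, which names no mouse gene and was used in no comparison, held 7 UMIs in PEP2 cells.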

How the results depend on the processing

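Across 177 named log2 fold changes and 2008 alternative values, 1947 kept their direction and side of the threshold, 34 lost the threshold, 15 gained it and 12 turned sign. Some of the 1947 went under the 2-fold limit, such as Syt5 at -0.71 and Syt9 at -0.41 with each type weighted equally. The number of genes called lower than in the other neurons moved from 695 to 1121 with no minimum share of cells and to 253 with each type weighted equally, and the counts called higher and those against NF_Calb1 and PEP1 stayed within 1.5 times. With the mouse as a replicate block the counts were 955 higher and 706 lower against the other neurons, 650 and 660 against NF_Calb1 and 958 and 767 against PEP1. With each type weighted equally the values against the other neurons turned to 0.65 for Gfra1, 0.77 for Scn11a, 1.33 for Mrgprd and 2.55 for Th, and Npy2r gained the call at 4.32; this fit averages log levels over types, and the cause was not tested. Npy2r turned to -0.0134 without cells over 10% mitochondrial, and Nr4a1 to -0.25 with all other cells as comparator. Ptprt against NF_Calb1, at 0.00, turned to -0.14 (DESeq2), -0.0127 (no filter), -0.0485 (replicate block), -0.39 (without cells of high UMI count), -0.42 (without mouse 2) and -0.22 (without mouse 5), with 0.25 as the highest value (without mouse 4). The share of Smr2 cells with Bmpr1b was 6.67% at 2 or more UMIs and 12.5% after thinning to 20000 UMIs, in place of 31.7%, and after thinning it was higher than in the other cells in mice 2 and 3. The share with Kit, an alternative chosen after seeing the data, was 2.22% at 2 or more Smr2 UMIs and 5.00% after thinning, in place of 11.1%. The correlation with NF_Calb1 was 0.928 over genes with at least 100 UMIs. Mouse 1 has 13 PEP2 cells and limits what rare genes can show.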
